A study of Mus musculus with 29 samples.

Results

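The comparison described here asks what the retrovirus for Neurog2 added to astrocytes that also received the retrovirus for Hmgb2, in a culture grown with EGF and bFGF. It sets the 3 Neurog2 + Hmgb2 libraries against the 4 libraries labelled Hmgb2, which are 7 of the 29 RNA-seq libraries of the study, and was read over the 15719 of 25239 genes whose mean level over all libraries was at least 1. Levels are rlog values, which are read counts scaled to a common library size, put on a log2 scale and shrunken most where reads are few, so that a difference of 1 is a 2-fold change and the differences of weakly expressed genes are understated. The cells were primary astrocytes from the cerebral cortex of wild-type C57BL/6J mice, expanded for 10 days with EGF and bFGF at 10 ng/ml each, reseeded, transduced and sorted by reporter fluorescence 48 h later. All of the libraries compared share this culture. The growth protocol gives an age of 5 to 6 postnatal days and the design text one of 6 to 8 days, and the cortex is called grey matter in the labels and white matter in the methods. The MMLV-derived vectors drove each cDNA from a CAG promoter, ahead of an internal ribosome entry site and a fluorescent protein, and such vectors integrate only in dividing cells. In the paper the reporter was dsRED for Neurog2 and GFP for Hmgb2 and for the control virus. Neurog2 + Hmgb2 cells thus differ from Hmgb2 cells also by a second virus, its reporter and the sort gate. The design cannot tell these apart from Neurog2 itself. The libraries used for comparison were 5 control (reporter only) and 3 Neurog2 libraries of the same culture. Those grown with 10 ng/ml of bFGF without EGF were 3 Neurog2 + Hmgb2, 4 Hmgb2, 3 control and 4 Neurog2 libraries. The p-values rest on the spread between libraries within groups, pooled over all 29 libraries and not only those compared. Nothing in the labels says whether libraries of a group came from separate animals or cultures, so this spread may be technical.

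As background, Neurog2 is a proneural basic helix-loop-helix (bHLH) transcription factor that binds E-box sequences as a dimer with E proteins and switches on a cascade of further neurogenic factors, Notch ligands and neuronal effector genes. Hmgb2 is a high mobility group protein that bends DNA and is abundant in proliferating progenitors. Forced expression of Neurog2 in cultured astrocytes is a standard way to convert them to neurons, and the time sampled here precedes the appearance of mature neurons.

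The level of the delivered genes came first, because it checks the labels. Neurog2 (GRCm38 chr3:127633135-127635631) stood at 14.29, 13.93 and 13.21 in the Neurog2 + Hmgb2 libraries and at 9.89, 11.46, 10.93 and 10.30 in the libraries labelled Hmgb2. The groups did not overlap, and the difference was 3.16 ± 0.39 on the log2 scale (SE; 8.96-fold; 95% interval 2.34 to 3.98; limma, adjusted p = 0.000127). The libraries labelled Hmgb2 were, however, not at the control level of Neurog2, which was 7.74 to 8.18 over 5 libraries. They lay 2.66 above it (adjusted p = 0.000551), and in bFGF the 4 libraries labelled Hmgb2 held 9.35, 11.02, 10.80 and 9.86 against 8.22, 8.18 and 7.86 in controls. The comparison is therefore one of a high with an intermediate level of Neurog2 reads, and the source of the reads in the libraries labelled Hmgb2 was not tested. Reads from the viral cDNA and from the chromosomal gene are not separated in these values, and below, with and without Neurog2 refer to the labelled virus.

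Hmgb2 (GRCm38 chr8:57511907-57515999) stood at 12.37, 11.71 and 13.32 in the Neurog2 + Hmgb2 libraries and at 12.61, 11.89, 12.44 and 12.26 in the libraries labelled Hmgb2, against 9.57 to 10.29 in controls. The 2 groups compared overlapped, with a difference of 0.17 ± 0.27 (95% interval -0.40 to 0.74, adjusted p = 0.864), which turned to -0.26 without Neurog2 + Hmgb2 library 3. The libraries labelled Hmgb2 lay 2.22 above control (adjusted p = 3.87e-05), and all 3 Neurog2 + Hmgb2 libraries lay above every control library.

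**Figure D1:**
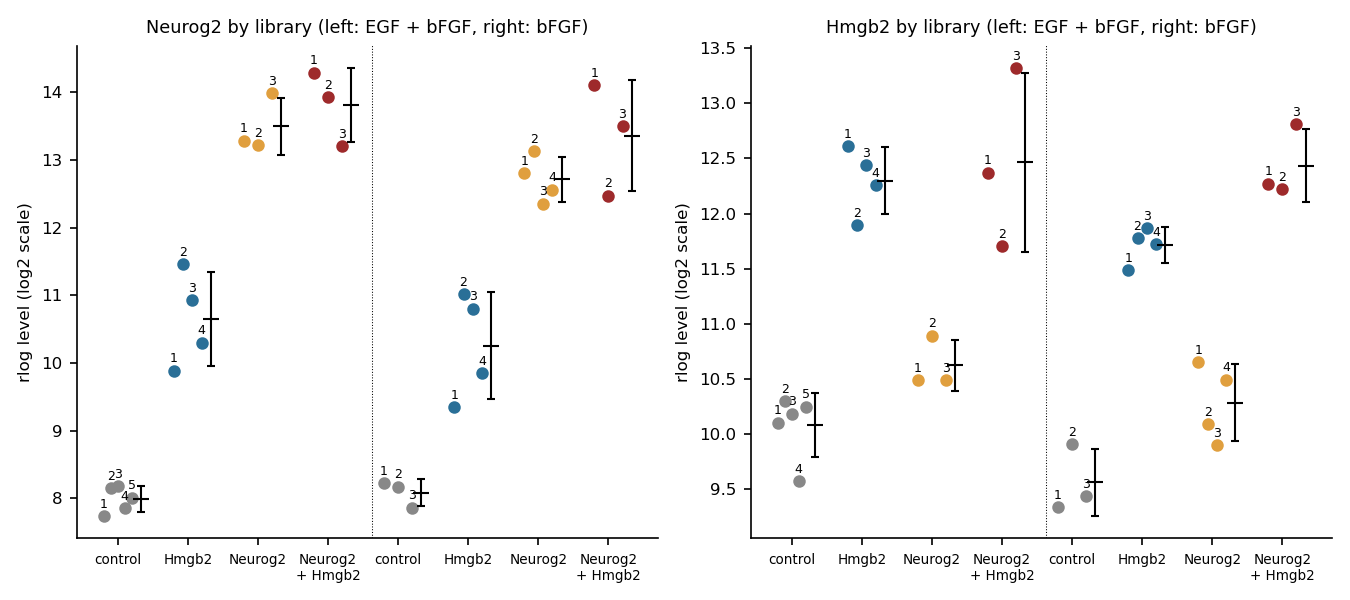
Level of Neurog2 (left panel) and Hmgb2 (right panel) in each library, in rlog units on a log2 scale, with EGF + bFGF groups left and bFGF groups right of the dotted line. Points are libraries with their replicate numbers, and bars give the mean and SD of each group. The 4 libraries labelled Hmgb2 in EGF + bFGF lie between controls and Neurog2-transduced libraries for Neurog2.

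The libraries were not uniform in other respects. On the first axis of variation of the 15 EGF + bFGF libraries, which held 47.5% of the variance, the number-2 libraries of both groups stood apart from the rest of their groups (73.2 for Neurog2 + Hmgb2 and 58.2 for Hmgb2, against -35.6 to 3.62 in the other 5). Gfap, the intermediate filament of astrocytes, was at 13.20 and 13.04 in these 2 libraries and at 14.94 to 15.73 in the other 5, so all 7 held the astrocyte label's best known marker. The mean over 20 microglia genes was 5.04, 8.53 and 7.08 in the Neurog2 + Hmgb2 libraries and 5.00, 5.30, 4.51 and 4.86 in the Hmgb2 libraries. Csf1r, the receptor that microglia need for survival, was at 5.90, 9.83 and 7.82 against 5.62, 6.02, 5.08 and 5.50, and Aif1 at 2.93, 5.29 and 3.85 against 2.71, 2.54, 2.53 and 2.37. All 20 microglia genes had differences above 0, with a median of 2.12, and 0 of 20 passed the test (12 had an unadjusted p under 0.05). Correlations between libraries were 0.955 to 0.993 within the groups and 0.938 to 0.989 between them, and no 2 libraries were identical. Because these are bulk samples, fewer cells of a type and less RNA per cell cannot be told apart.

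With Neurog2 added, the change was mostly a gain of expression. Counted at more than a 2-fold change with an adjusted p under 0.05, 89 genes were higher (0.566% of the genes tested) and 10 lower (0.0636%) in Neurog2 + Hmgb2 than in Hmgb2 libraries. At any fold, 118 genes were higher (0.751%) and 26 lower (0.165%). All 89 and all 10 had non-overlapping libraries, which held for 4.64% (higher) and 3.38% (lower) of all tested genes, and 33 rose more than 4-fold. The median difference over all tested genes was 0.01, and 52.2% lay above 0. Of the counted genes close to the fold threshold, Tafa1 was at 1.01 and Plscr2 at -1.04.

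These counts leaned on single libraries. Without Neurog2 + Hmgb2 library 3, 19 genes were higher and 0 lower (smallest adjusted p = 0.00085), without Hmgb2 library 1 they were 49 and 3, and without Hmgb2 library 3 they were 54 and 3. Without Neurog2 + Hmgb2 library 1, 73 were higher and 21 lower, and without its library 2, which carried the highest microglia mean, 129 and 6. Without both number-2 libraries the counts were 82 and 3, and with the microglia mean as a covariate 57 and 4, both chosen after the data were seen. Of those 57 and 4, 46 and 1 were among the 89 and 10. Of the 68 genes chosen for naming, 34 lost their call with the covariate, while Hmgb2, Neurod4, Insm1, Prox1, Lrp8 and Shf had no call to lose. In every one of these fits all 99 genes kept the sign of their difference. Fitting only the 7 libraries compared, with their own estimate of the spread, left 0 genes past the adjusted threshold (smallest adjusted p = 0.0531, 1275 genes with an unadjusted p under 0.05). Past both thresholds under each of the 7 single omissions were 16 genes, namely Neurog2, Ppp1r14a, Mfng, Trp53i11, Cbfa2t3, Neurod2, St18, Chrna3, Lzts1, Hes6, Bsn and Ebf3 and, named here after their values were seen, 4930447F24Rik, Ackr1, Hps4 and Olfml3. The remaining genes named below lost their call in at least 1 such omission, unless stated otherwise, most often that of Neurog2 + Hmgb2 library 3.

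**Figure D2:**
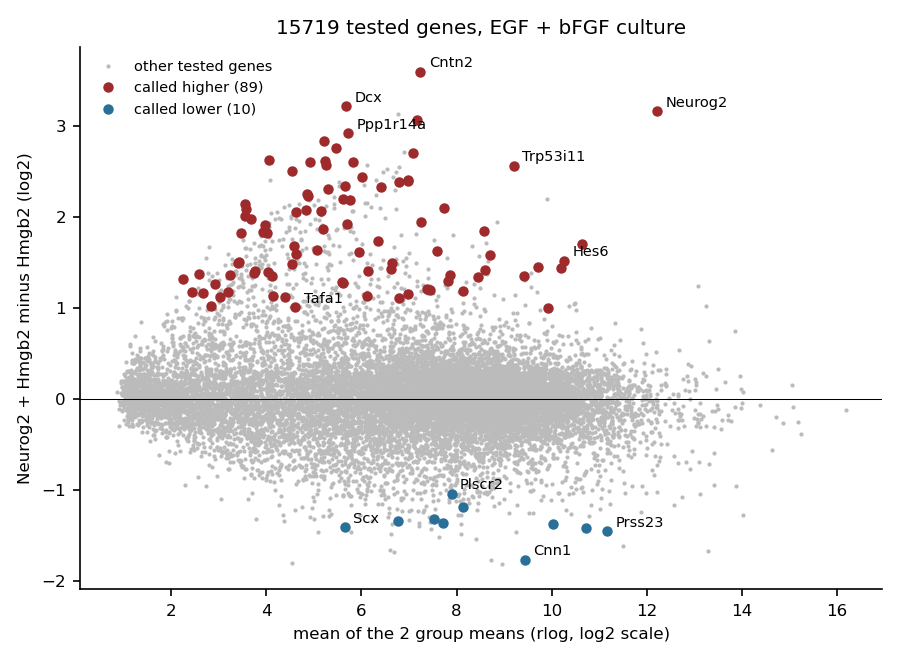
Difference between Neurog2 + Hmgb2 and Hmgb2 libraries of the EGF + bFGF culture (log2, vertical axis) against the mean of the group means (rlog, horizontal axis) for 15719 genes. Coloured points passed both thresholds, 89 higher and 10 lower. Neurog2 has the highest level among the genes labelled, and most called genes lie at lower levels.

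Proneural and neurogenic transcription factors had the highest share of calls among the 35 gene lists examined. Of 19 tested members, 7 rose and 0 fell, with a median difference of 0.85. The 7 include Neurog2, the delivered gene itself. Over all tested genes 0.751% rose and 0.165% fell at any fold, which are the shares to set beside this and each later list. Neurod1, a bHLH factor downstream of Neurog2 in cortical neurogenesis, was at 6.31, 5.60 and 7.74 with Neurog2 and at 3.58, 4.04, 3.93 and 4.17 without, a difference of 2.62 ± 0.44 (adjusted p = 0.00323). Neurod2, which acts in maturing cortical neurons, was at 4.76, 3.92 and 5.19 against 2.86, 2.36, 2.35 and 2.33 and rose by 2.15 ± 0.31 (adjusted p = 0.00101). Nhlh1, a bHLH factor of newly born neurons, was at 4.66, 4.79 and 6.68 against 2.63, 2.75, 2.74 and 2.87 and rose by 2.63 ± 0.48 (adjusted p = 0.00664). In each of these 3 genes the lowest Neurog2 + Hmgb2 library lay above the highest Hmgb2 library, and library 3 was the highest. Hes6, a bHLH protein that favours neuronal differentiation, rose from 9.68, 9.29, 9.29 and 9.74 to 11.47, 10.40 and 11.20, by 1.52 ± 0.24 (adjusted p = 0.0018). Sox11, a factor of newborn neurons, rose from 8.81, 8.74, 8.73 and 8.70 to 9.81, 9.67 and 10.80, by 1.35 ± 0.29 (adjusted p = 0.019). The other called members were Neurog2 and Neurod6, the latter at 1.63, 1.42 and 2.31 against 0.93, 0.95, 0.95 and 0.91 and 0.85 ± 0.18 higher (adjusted p = 0.019; named after its values were seen).

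Several neurogenic factors that the study follows did not pass the test. Neurod4 was at 2.88, 2.74 and 5.27 against 1.93, 2.03, 2.01 and 1.85, with library 3 far above its group, and its difference was 1.68 ± 0.67 (adjusted p = 0.339). Insm1, a zinc finger factor of intermediate progenitors, was at 8.13, 5.61 and 8.80 against 5.14, 4.88, 4.44 and 5.95, and its Neurog2 + Hmgb2 library 2 lay within the range of the Hmgb2 libraries (2.41 ± 0.70, adjusted p = 0.133). Without that library, Insm1 was 3.37 higher (adjusted p = 0.0132). Prox1, a homeobox factor, was at 8.15, 7.23 and 8.80 against 6.83, 6.06, 6.90 and 7.13 (1.33 ± 0.43, adjusted p = 0.216), with libraries that did not overlap. Without Neurog2 + Hmgb2 library 3, the members of the list that passed fell from 7 to 3, and over the 7 single omissions they ranged from 3 to 8. Library 3 carried the highest values of Neurod1, Neurod2 and Nhlh1 but the lowest of Neurog2 itself among the 3 libraries. The microglia covariate left 5 of the 19 past the test, and the adjusted p of Sox11 was then 0.131.

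Chromatin partners of such factors were also among the called genes. Of 11 corepressors of the neurogenic programme, 3 rose and 0 fell (median difference 0.28), against 0.751% of all tested genes higher at any fold. Cbfa2t3, a corepressor of the ETO family, was at 7.03, 7.41 and 7.27 against 4.49, 5.07, 4.85 and 4.79 and rose by 2.44 ± 0.28 (adjusted p = 3.96e-05). It was one of the steadiest rises, with a difference of 2.33 to 2.54 over the single omissions, and the libraries labelled Hmgb2 themselves lay above the controls (3.25 to 3.88), a difference of 1.19 that did not pass the test (adjusted p = 0.319). Rcor2, a CoREST scaffold protein, rose from 6.44, 6.79, 6.83 and 6.65 to 8.70, 8.00 and 9.64, by 2.10 ± 0.41 (adjusted p = 0.00997). Kdm1a, the histone demethylase LSD1 that works with CoREST proteins, rose by 0.43 ± 0.09 (adjusted p = 0.0242), with 10.55, 10.48 and 10.56 against 10.16, 9.98, 10.11 and 10.14, and its adjusted p was 0.0773 with the replicate number as a block. Of the 19 genes for subunits exchanged in neuronal BAF complexes, only Actl6b (BAF53b, the neuronal subunit) passed, at 2.79, 2.71 and 4.33 against 1.89, 1.94, 1.93 and 1.84 (1.38 ± 0.32, adjusted p = 0.0326; 0.0803 with the block). Leaving out Neurog2 + Hmgb2 library 3 left 1 of the 11 corepressors and 0 of the 19 BAF genes past the test, and the microglia covariate left 2 and 0 (adjusted p of Kdm1a 0.113).

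Transcription factors of differentiated neurons followed. Of 21 tested, 4 rose and 0 fell (median difference 0.73). St18, a zinc finger factor of the Myt1 family, was at 4.12, 4.48 and 5.25 against 2.44, 2.52, 2.67 and 2.49 and rose by 2.09 ± 0.31 (adjusted p = 0.0014). Ebf3, a helix-loop-helix factor of migrating and differentiating neurons, was at 3.07, 2.54 and 3.09 against 1.56, 1.60, 1.59 and 1.53, a rise of 1.32 ± 0.20 (adjusted p = 0.0014). The Hmgb2 libraries of both genes lay close together and well below the lowest Neurog2 + Hmgb2 library. Onecut2 rose by 1.17 ± 0.24 (adjusted p = 0.0137) and Pou4f1, a POU factor of sensory neurons, by 0.69 ± 0.17 (adjusted p = 0.0467), the latter with an adjusted p of 0.0872 under the block. St18 and Ebf3 were the 2 of the 21 that passed without Neurog2 + Hmgb2 library 3, and also the 2 that passed with the microglia covariate.

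The sequence just before the start of some of these genes is shown because Neurog2 binds E-boxes, and CAGATG is a form of the E-box (CANNTG) that proneural bHLH factors prefer. The 250 bases before the start of 4 risen genes that hold CAGATG follow, from RefSeq promoters, read 5′ to 3′ on the gene's strand (Cbfa2t3 has a further listed start, and the 250 bases before it hold no CAGATG), with CAGATG or its reverse complement CATCTG in capitals.
Nhlh1 (GRCm38.p6 chr1:172057597-172057846, minus strand): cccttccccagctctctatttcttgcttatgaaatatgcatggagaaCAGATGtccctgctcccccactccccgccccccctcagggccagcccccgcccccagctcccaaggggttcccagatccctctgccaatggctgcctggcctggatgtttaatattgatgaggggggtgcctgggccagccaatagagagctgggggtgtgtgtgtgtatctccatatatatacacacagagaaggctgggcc
Neurod2 (GRCm38.p6 chr11:98329646-98329895, minus strand): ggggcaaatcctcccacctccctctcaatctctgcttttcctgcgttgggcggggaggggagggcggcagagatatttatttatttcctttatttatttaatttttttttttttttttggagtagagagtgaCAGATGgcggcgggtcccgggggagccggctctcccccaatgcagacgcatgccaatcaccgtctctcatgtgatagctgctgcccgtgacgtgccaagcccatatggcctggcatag
Cbfa2t3 (GRCm38.p6 chr8:122699110-122699359, minus strand): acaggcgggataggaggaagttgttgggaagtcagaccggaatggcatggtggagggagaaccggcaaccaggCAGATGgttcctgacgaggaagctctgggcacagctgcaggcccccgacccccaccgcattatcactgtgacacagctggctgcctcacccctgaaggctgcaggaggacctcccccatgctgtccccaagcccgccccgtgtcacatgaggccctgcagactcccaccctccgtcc
Ppp1r14a (GRCm38.p6 chr7:29289070-29289319, plus strand): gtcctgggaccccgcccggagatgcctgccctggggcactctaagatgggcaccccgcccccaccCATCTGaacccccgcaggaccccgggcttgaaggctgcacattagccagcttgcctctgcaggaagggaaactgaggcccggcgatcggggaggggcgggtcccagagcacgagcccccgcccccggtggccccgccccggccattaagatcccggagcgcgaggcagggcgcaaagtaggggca
The capitals begin 203, 118, 177 and 185 bases before the start, in that order. RefSeq promoters were matched for 69 of the 89 risen genes, and 11 of these (15.9%) held CAGATG on either strand at any listed start, against 12.3% of 12303 tested genes with a promoter. CAGCTG, another E-box, was in 18 of 69 (26.1%) against 14.6%, and any CANNTG, which includes both, in 50 of 69 (72.5%) against 62.3%. Of the 6 fallen genes matched, 0 held CAGATG. A match describes the letters and not a bound site, and the share of CAGATG among risen genes was close to that of all genes.

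Components of the Notch pathway, through which newborn neurons signal to their neighbours, were among the risen genes. Of 21 members, 5 rose and 0 fell (median difference 0.23), and 3 of the 5 were ligands. Dll4 was at 6.56, 4.90 and 6.49 with Neurog2 and 3.45, 3.63, 3.71 and 4.24 without, a rise of 2.23 ± 0.38 (adjusted p = 0.00323). Dll3, a ligand that acts within the cell that makes it, was at 7.74, 7.13 and 9.64 against 5.86, 5.09, 5.54 and 6.59 and rose by 2.40 ± 0.57 (adjusted p = 0.0384), or 0.0523 for the adjusted p with the block. Dll1, a main activating ligand of neurogenesis, was at 8.43, 8.14 and 8.65 against 6.83, 6.12, 7.17 and 6.97 and rose by 1.63 ± 0.36 (adjusted p = 0.0239). The libraries of the ligands did not overlap between the groups. Mfng, a glycosyltransferase that modifies Notch receptors, was at 6.06, 5.74 and 6.84 against 3.50, 3.46, 3.44 and 4.04, a rise of 2.60 ± 0.41 (adjusted p = 0.0018). Heyl, a bHLH repressor switched on by Notch, was at 6.29, 8.19 and 6.07 against 3.84, 4.78, 3.40 and 4.34, 2.76 ± 0.65 (adjusted p = 0.0369), with its highest value in library 2 and an adjusted p of 0.0766 with the block. Only Mfng of the 21 passed when Neurog2 + Hmgb2 library 3 was left out, and 3 passed with the microglia covariate, which took the adjusted p of Heyl to 0.217 and of Dll3 to 0.201. Exons of Dll4 and the gene model Gm14207, also called higher, overlap on opposite strands over 214 bases, and the library kit does not keep the strand, so reads there cannot be told apart. Shared exon bases also exist between Neurod1 and Cerkl (201), between Ina and Nt5c2 (456) and, on the same strand, between Ackr1 and Cadm3 (361, 25.7% of the exon bases of Ackr1).

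The cytoskeleton and RNA-binding proteins of young neurons included the second largest rise. Of 33 tested members 5 rose and 0 fell (median difference 0.61). Dcx, a microtubule-associated protein of migrating newborn neurons, was at 6.64, 6.70 and 8.52 against 4.05, 3.96, 3.82 and 4.45, a rise of 3.22 ± 0.59 (adjusted p = 0.00664) or 9.31-fold. Rbfox3, the splicing factor known as NeuN, was at 5.66, 6.10 and 8.16 against 4.00, 3.66, 3.51 and 4.03, a rise of 2.84 ± 0.50 (adjusted p = 0.0048). Elavl2, a neuronal RNA-binding protein of the Hu family, was at 8.14, 7.12 and 8.68 against 5.63, 5.47, 5.32 and 5.94, a rise of 2.39 ± 0.46 (adjusted p = 0.00997). In all 3 the lowest library with Neurog2 exceeded the highest without it by more than 1. Tubb3, the neuronal beta-tubulin, rose from 9.63, 9.37, 9.48 and 9.41 to 11.02, 10.54 and 11.19, by 1.45 ± 0.33 (adjusted p = 0.0323), and Ina, the neurofilament protein alpha-internexin, by 1.87 ± 0.44 (adjusted p = 0.0369). Without Neurog2 + Hmgb2 library 3, which held the highest value of each of these 5 genes, 0 of the 33 passed, and the adjusted p was 0.116 for Dcx and 0.0922 for Rbfox3. Adding the microglia covariate left Dcx, at 2.50, and Rbfox3, at 2.36, past the test, with an adjusted p of 0.0618 for Elavl2, 0.197 for Tubb3 and 0.217 for Ina.

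Among 21 genes of newborn neuron migration and reelin signalling, 3 rose and 0 fell (median difference 0.48). Lzts1, which drives the departure of newborn neurons from the ventricular surface, was at 8.75, 7.35 and 8.57 against 6.32, 6.14, 6.35 and 6.31 and rose by 1.94 ± 0.31 (adjusted p = 0.0018). Mdga1, a GPI-anchored adhesion protein of migrating cortical neurons, rose by 1.85 ± 0.42 (adjusted p = 0.0299), and Cdk5r1, the p35 activator of Cdk5, by 1.28 ± 0.31 (adjusted p = 0.0422). With the replicate block their adjusted p was 0.0823 and 0.0717. Lrp8, a reelin receptor, was at 10.68, 9.39 and 10.80 against 9.21, 9.03, 9.10 and 9.13, libraries that did not overlap, and did not pass (1.17 ± 0.37, adjusted p = 0.2), while without Neurog2 + Hmgb2 library 2 it was 1.62 higher (adjusted p = 0.0371). Lzts1 was the only one of the 21 that passed without Neurog2 + Hmgb2 library 3, and again with the microglia covariate (Mdga1 0.191 and Cdk5r1 0.224 for the adjusted p).

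Genes of the synapse and of excitability also held calls. Of 28 tested genes of synaptic vesicles and transmitter release 5 rose and 0 fell (median difference 0.48). Sv2b, a vesicle glycoprotein, was at 5.49, 4.95 and 6.51 against 3.72, 3.43, 3.40 and 3.83 (2.06 ± 0.40, adjusted p = 0.00997). Bsn, the presynaptic scaffold bassoon, was at 5.21, 5.03 and 5.59 against 3.96, 3.80, 3.60 and 3.83 (1.48 ± 0.23, adjusted p = 0.00154). The complexins Cplx1 and Cplx2, clamps of the fusion machinery, rose by 1.83 ± 0.39 (adjusted p = 0.021) and 1.19 ± 0.25 (adjusted p = 0.018). Bsn passed under each of the 7 single omissions at any fold. In the fit with the microglia covariate, Sv2b and Cplx1 did not pass (adjusted p = 0.0521 and 0.14).

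Of 34 postsynaptic receptors and scaffolds 2 rose and 0 fell (median difference 0.16), both subunits of nicotinic acetylcholine receptors whose genes lie side by side. Chrna3 was at 4.06, 4.21 and 5.41 against 2.43, 2.52, 2.66 and 2.58 (2.01 ± 0.31, adjusted p = 0.00154) and Chrnb4 at 4.69, 3.08 and 3.96 against 2.60, 2.43, 2.57 and 2.60 (1.36 ± 0.29, adjusted p = 0.0225). The Hmgb2 libraries of both lay within a range of less than 1. Of 16 granins, neuropeptides and processing enzymes only Chga, a granin of dense-core vesicles, passed (1.92 ± 0.43, adjusted p = 0.0261; 0.0893 with the block). Neither Chrnb4 nor Chga passed without Neurog2 + Hmgb2 library 3 (adjusted p = 0.149 and 0.275), nor did Chga with the microglia covariate (0.167).

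The largest rise of all was in an adhesion molecule. Cntn2 (GRCm38 chr1:132509427-132543256), an axonal contactin, was at 8.88, 7.80 and 10.43 against 5.67, 4.74, 5.39 and 5.96, a difference of 3.60 ± 0.61 or 12.1-fold (95% interval 2.33 to 4.87, adjusted p = 0.00323). Its lowest library with Neurog2 lay 1.84 above the highest without. Of 34 neuronal adhesion molecules 4 rose and 0 fell, while the median difference was 0.09. Igsf21, a synaptic immunoglobulin-family protein, was at 8.43, 7.33 and 9.57 against 5.92, 5.41, 5.05 and 6.56 (2.71 ± 0.60, adjusted p = 0.0247; 0.0556 with the block). Dscaml1, a homophilic adhesion molecule, was at 7.56, 6.37 and 8.79 against 5.20, 4.89, 5.17 and 5.71 (2.33 ± 0.54, adjusted p = 0.0358), and Celsr3, an adhesion receptor of axon tract formation, rose by 1.64 ± 0.37 (adjusted p = 0.0299), with 0.0523 under the block. Without Neurog2 + Hmgb2 library 3, 0 of the 34 passed, and the adjusted p of Cntn2 was 0.0726. Cntn2 was the only one of the 34 that passed with the microglia covariate, and the adjusted p was 0.162 for Igsf21, 0.149 for Dscaml1 and 0.145 for Celsr3.

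Axon guidance genes split evenly in direction, 21 of 42 above 0 and a median of -0.0048, with 4 called higher and 0 lower. Slit1, a secreted repellent, was at 8.75, 6.65 and 9.15 against 5.90, 4.90, 5.69 and 6.59 (2.41 ± 0.50, adjusted p = 0.0171), and its library 2 was the low one with Neurog2. Dcc, the netrin receptor, was at 5.45, 5.28 and 6.86 against 3.98, 3.69, 3.55 and 3.90 (2.08 ± 0.46, adjusted p = 0.0252). Unc5a, a repulsive netrin receptor, rose by 0.95 ± 0.23 (adjusted p = 0.0406) and Sema6c, a transmembrane semaphorin, by 1.41 ± 0.33 (adjusted p = 0.0352). With the block the adjusted p was 0.0823 for Unc5a and 0.0773 for Sema6c, and for Unc5a it was 0.0526 with libraries centred on their medians and 0.134 after quantile normalization. None of the 4 passed without Neurog2 + Hmgb2 library 3, and none with the microglia covariate (adjusted p = 0.0528 for Slit1, 0.159 for Dcc, 0.246 for Unc5a and 0.187 for Sema6c).

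The remaining large rises fell outside the groups above. Ppp1r14a (GRCm38 chr7:29289308-29293801), an inhibitor of myosin phosphatase, was at 6.53, 7.49 and 7.50 against 3.84, 4.49, 4.18 and 4.50, a rise of 2.92 ± 0.34 or 7.59-fold (adjusted p = 3.96e-05). Trp53i11, named for its induction by p53, was at 10.42, 10.02 and 11.04 against 7.91, 7.55, 8.09 and 8.14, a rise of 2.57 ± 0.29 or 5.93-fold (adjusted p = 3.96e-05). These 2 and Cbfa2t3 shared the smallest adjusted p of the comparison. Miat, a long noncoding RNA of neurons, was at 8.74, 7.61 and 9.73 against 5.97, 4.91, 5.18 and 6.44 (3.06 ± 0.59, adjusted p = 0.00997). Prmt8, an arginine methyltransferase found mainly in brain, was at 6.45, 5.68 and 7.47 against 3.88, 3.80, 3.67 and 4.50 (2.57 ± 0.42, adjusted p = 0.00244). Acpp, an acid phosphatase, was at 6.67, 7.63 and 7.10 against 4.28, 4.85, 4.15 and 4.81 (2.61 ± 0.56, adjusted p = 0.021), and without Neurog2 + Hmgb2 library 3 the adjusted p was 0.133 for Acpp, 0.0586 for Prmt8 and 0.139 for Miat, the last also losing its call with the microglia covariate (0.0504). Shf did not pass, at 7.54, 7.0 and 7.93 against 5.80, 6.69, 5.24 and 6.05 (1.54 ± 0.44, adjusted p = 0.124).

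**Figure D3:**
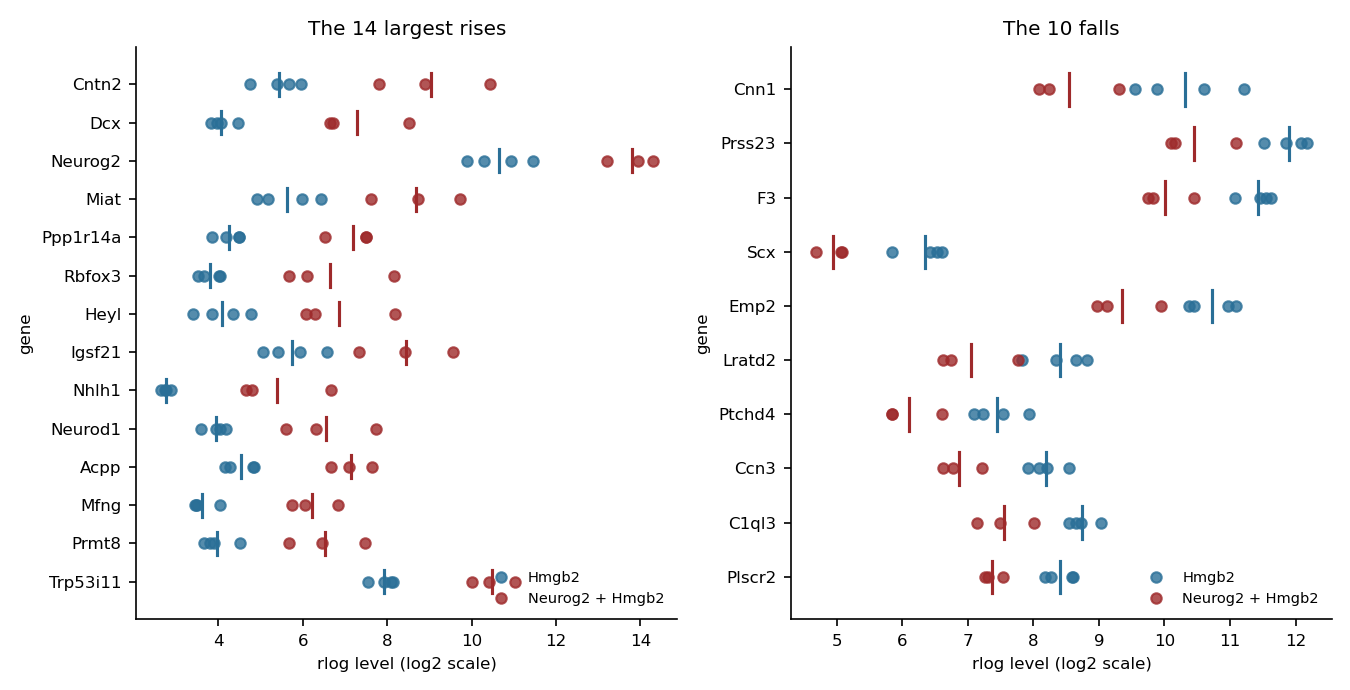
Level (rlog, log2 scale, horizontal axis) of the 14 largest rises (left panel) and the 10 falls (right panel) in each of the 7 libraries. Points are libraries, 3 Neurog2 + Hmgb2 and 4 Hmgb2, and short vertical lines are group means. The 2 groups do not overlap in any of the 24 genes, and the gap is narrowest in Lratd2 and Cnn1 among the falls.

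The 10 genes that fell came from several groups, and the 4 with the largest falls are given first. Cnn1 (GRCm38 chr9:22099216-22109630), the actin-binding calponin of contractile cells, had the largest fall, from 11.21, 9.56, 10.60 and 9.89 to 9.31, 8.24 and 8.09, a difference of -1.77 ± 0.43 or 3.4-fold (adjusted p = 0.0462). Next came Prss23, a secreted serine protease, which went from 12.08, 11.85, 12.18 and 11.51 to 11.09, 10.10 and 10.16 (-1.46 ± 0.28, adjusted p = 0.00997). F3, tissue factor, the starter of coagulation, went from 11.63, 11.08, 11.55 and 11.45 to 10.45, 9.83 and 9.74 (-1.42 ± 0.27, adjusted p = 0.00812). Scx, a bHLH factor of tendon cells, went from 6.61, 5.85, 6.42 and 6.53 to 5.07, 4.68 and 5.08 (-1.41 ± 0.27, adjusted p = 0.00997). F3, Prss23 and Scx kept their call in 6 of the 7 single omissions, all but that of Neurog2 + Hmgb2 library 3 (adjusted p = 0.0955, 0.128 and 0.0586).

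The other 6 falls were smaller. Emp2, a tetraspan membrane protein, changed by -1.37 ± 0.28 (adjusted p = 0.0132), Lratd2 by -1.36 ± 0.28 (adjusted p = 0.015) and Ptchd4, a patched-domain protein, by -1.35 ± 0.31 (adjusted p = 0.0299). Ccn3, a matricellular protein, changed by -1.32 ± 0.30 (adjusted p = 0.0326), C1ql3, a secreted C1q-like protein, by -1.19 ± 0.28 (adjusted p = 0.0384) and Plscr2, of the scramblase family, by -1.04 ± 0.24 (adjusted p = 0.0369). With the replicate block the adjusted p was 0.0523 for Ptchd4, 0.0823 for Ccn3, 0.0934 for C1ql3 and 0.105 for Plscr2, and none of the 6 passed without Neurog2 + Hmgb2 library 3. With the microglia mean as a covariate, 1 of the 10 falls, F3, passed both thresholds, and the adjusted p of Cnn1 was 0.288. Among the listed groups, F3 was the 1 of 17 YAP and TAZ targets called (lower, list median -0.31) and Cnn1 the 1 of 33 stress fibre genes and of 9 pericyte and smooth muscle genes (lower, list medians -0.37 and -0.31). Cd109, the 1 of 23 reactive astrocyte genes called, went from 10.78 to 11.28 (4 libraries) to 10.05, 10.49 and 9.92 (-0.88 ± 0.18, adjusted p = 0.0121).

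Sterol genes gave 1 call in each direction. Of 20 genes of cholesterol synthesis and uptake, 18 lay below 0 (median -0.54), while 52.2% of all tested genes lay above 0. In 10 of the 20 the libraries lay below those of the Hmgb2 group without overlap, against 3.38% of all tested genes. Sc5d, a desaturase of the last steps of synthesis, fell from 9.58, 9.78, 9.85 and 9.49 to 9.16, 8.68 and 8.75 (-0.81 ± 0.17, adjusted p = 0.021). Abcg1, a cholesterol exporter, went from 4.10, 5.05, 4.34 and 4.41 to 6.11, 7.60 and 6.74 (2.34 ± 0.51, adjusted p = 0.0242). Abcg1 was highest in Neurog2 + Hmgb2 library 2 and reached 6.65 in control library 2, the libraries with the highest microglia means of the culture (8.53 and 8.54). With the microglia mean as a covariate the difference of Sc5d had an adjusted p of 0.122 and that of Abcg1 shrank to 1.38, with an adjusted p of 0.0492, and without Neurog2 + Hmgb2 library 3 it was 0.138 for Abcg1 and 0.163 for Sc5d.

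Astrocyte and cell division genes gave no call at this threshold. Of 27 astrocyte identity genes 21 lay below 0 (median -0.42), 0 passed and 3 had an unadjusted p under 0.05, and the means over the list were 10.87, 9.44 and 10.42 with Neurog2 and 11.13, 9.52, 11.01 and 11.18 without. Aqp4, the water channel of astrocyte endfeet, was at 12.24, 9.88 and 11.54 against 12.56, 10.19, 12.90 and 13.07 and Slc1a3, a glutamate transporter, at 12.60, 10.11 and 11.54 against 13.01, 10.69, 12.78 and 13.02, so that the number-2 library was the low one in both groups. All 25 S phase genes and all 27 G2 and M phase genes lay above 0 (medians 0.33 and 0.27), against 52.2% of all tested genes. Of these, 0 were called, 0 had an unadjusted p under 0.05 and 0 had non-overlapping libraries. The S phase means were 8.51, 9.55 and 8.57 with Neurog2 and 7.9 to 9.15 without. Those of G2 and M phase were 8.75, 9.82 and 8.96 against 8.26 to 9.54. In both lists the number-2 library was the highest of each group and Hmgb2 library 3 the lowest of all, so a cell cycle rise is not shown. Of 15 Id and BMP feedback genes 13 lay below 0 (median -0.54) with 0 called and 6 at an unadjusted p under 0.05. The lists for other cell types (oligodendrocyte lineage, endothelial, fibroblast, ependymal, striated muscle) also held 0 calls, with 0 to 2 genes each at an unadjusted p under 0.05.

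Neurog2 was also compared with control in this culture without the Hmgb2 virus, and the 2 comparisons share no library. The step is not the same, because there the dsRED virus stands in place of a GFP virus. On Hmgb2 it comes on top of a GFP virus. Neurog2 against control cells gave 153 genes higher (0.973%) and 16 lower (0.102%), and 212 higher at any fold (1.35%). Of the 89 genes higher on Hmgb2, all lay above 0 without it, 55 were also counted there (61.8% of the 89, 35.9% of the 153), and of the 10 lower genes all lay below 0 and 4 were counted (25% of the 16). The differences of the 2 comparisons correlated over 15719 genes with a Pearson r of 0.452 and a Spearman rho of 0.294, a description across genes, which are not independent. Whether Neurog2 did something else on Hmgb2 was asked by the difference of the 2 responses, and 0 genes passed (0%; smallest limma adjusted p = 0.885; 281 genes at an unadjusted p under 0.05). The 2 responses start from unlike levels of Neurog2 reads, because the libraries labelled Hmgb2 lay above control. This difference test therefore cannot separate the Hmgb2 virus from an unequal step in Neurog2, or from the unlike number of viruses and reporters.

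Single genes show how wide that test was. Neurog2 itself rose by 5.51 ± 0.38 over control and by 3.16 ± 0.39 over the libraries labelled Hmgb2, a difference of -2.34 ± 0.55 (adjusted p = 0.885), and its levels with Neurog2 alone were 13.29, 13.22 and 13.98. Lzts1 rose by 3.47 ± 0.29 without and 1.94 ± 0.31 with the Hmgb2 virus (difference -1.53 ± 0.42). Cplx2 rose by 2.32 ± 0.24 and 1.19 ± 0.25 (difference -1.13 ± 0.34), and Hes6 by 2.52 ± 0.23 and 1.52 ± 0.24 (difference -0.99 ± 0.34). On the other side, St18 was 0.89 ± 0.30 higher without and 2.09 ± 0.31 with the virus (difference 1.20 ± 0.43), Ina 0.60 ± 0.42 and 1.87 ± 0.44 (difference 1.27 ± 0.61), and Ebf3 0.42 ± 0.19 and 1.32 ± 0.20 (difference 0.91 ± 0.27). All of these differences had an adjusted p of 0.885, so neither set is shown to respond unequally. St18, Ebf3 and Ina were called with the virus and not without it (adjusted p without = 0.163, 0.365 and 0.62), which is no test of a difference. Insm1, Prox1 and Lrp8 were called without the virus (3.15 ± 0.67, 1.87 ± 0.41 and 1.80 ± 0.36) and not with it.

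**Figure D4:**
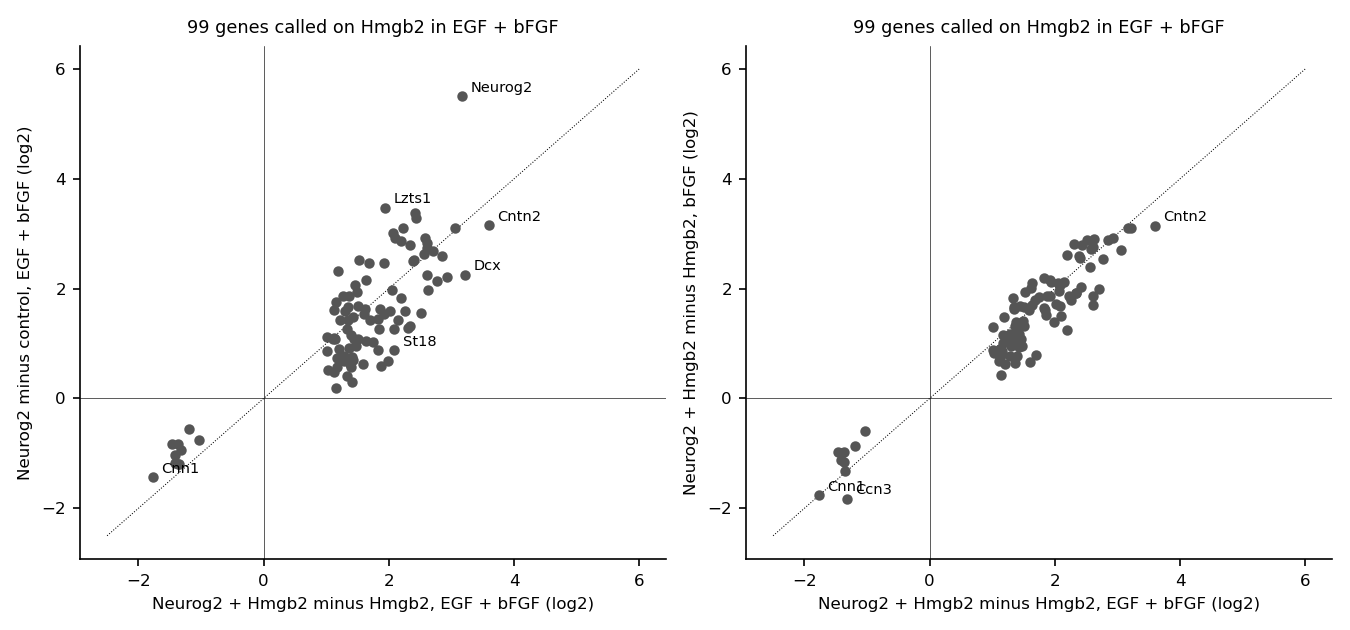
Differences (log2) of the 99 genes called in Neurog2 + Hmgb2 minus Hmgb2 in EGF + bFGF (horizontal axes) against Neurog2 minus control in EGF + bFGF (left panel) and against Neurog2 + Hmgb2 minus Hmgb2 in bFGF (right panel). Each point is a gene, and the dotted line marks equal differences. All 99 points keep their sign in both panels, and Neurog2 lies farthest above the line on the left.

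The comparison was also made in cells grown with bFGF alone, with libraries that again are not shared. There, 84 genes were higher (0.534%) and 19 lower (0.121%) with Neurog2 + Hmgb2 than with Hmgb2, and 109 were higher at any fold (0.693%). Of the 89 genes higher in EGF + bFGF, all lay above 0 and 54 were counted in bFGF (60.7% of the 89, 64.3% of the 84), and of the 10 lower genes 5 were counted (26.3% of the 19). The differences correlated over all genes with a Pearson r of 0.745 and a Spearman rho of 0.641. Cntn2 rose by 3.15 ± 0.61 in bFGF, Dcx by 3.10 ± 0.59, Ppp1r14a by 2.93 ± 0.34 and Cbfa2t3 by 2.78 ± 0.28. The difference of the response between the cultures passed for 0 genes (0%; smallest adjusted p = 1; 151 genes at an unadjusted p under 0.05). For Cntn2 it was 0.45 ± 0.87, for Dcx 0.12 ± 0.83 and for Mfng 0.74 ± 0.58, so that their standard errors leave room for differences of over 2-fold. In Neurog2 itself the cultures differed by 0.06 ± 0.56.

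A yardstick for the Neurog2 response came from libraries outside the comparison. The fit, and with it each gene's estimate of the spread, was shared, so genes chosen by their adjusted p pass more easily here too. In bFGF, Neurog2 against control gave 47 genes higher (0.299%), and without Neurog2 itself these were 46 genes, a set added after the data were seen. With Neurog2 on Hmgb2 in EGF + bFGF, all 46 lay above 0, with a median difference of 1.70 (0.58 to 3.60), against 52.2% of all genes above 0. Of the 46, 31 passed at any fold, against 0.751% of all tested genes. In the same culture without the Hmgb2 virus their median was 2.19 and 40 passed, against 1.35% of all tested genes. The difference of these responses had a median of -0.22, with 14 of 46 above 0, against 52% of all genes, and 0 called. The mean over the set was 6.95, 6.38 and 7.39 in the Neurog2 + Hmgb2 libraries and 6.52, 7.01 and 7.11 in the Neurog2 libraries, ranges that overlap. The libraries labelled Hmgb2 were at 5.05, 5.00, 5.10 and 5.30, all above the 4.69 to 4.94 of the 5 controls. Over the 46 genes, Hmgb2 minus control, which shares the Hmgb2 libraries with the main comparison, had a median of 0.28, with 41 above 0 against 46.3% of all genes and 0 called, beside 2 genes higher in all (0.0127%), Neurog2 and Hmgb2. These are the libraries that also held Neurog2 reads above control, and whether the 2 facts are linked was not tested.

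**Figure D5:**
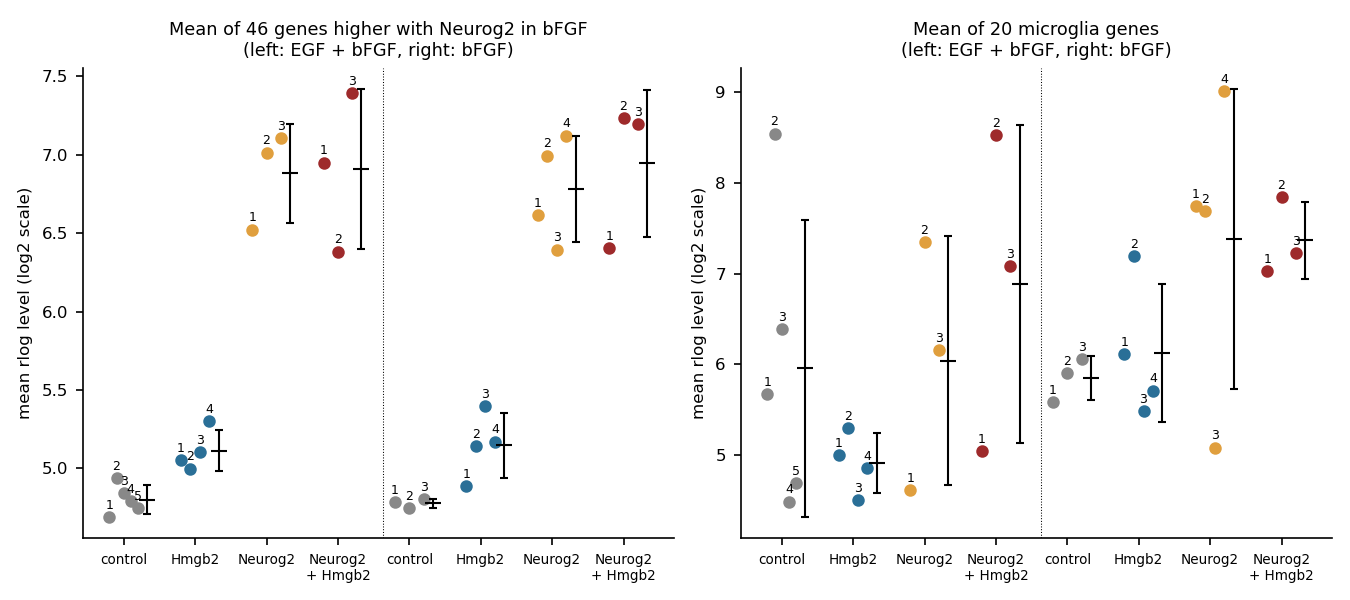
Mean level (rlog, log2 scale) of 46 genes higher with Neurog2 in bFGF (left panel) and of 20 microglia genes (right panel) in each library, EGF + bFGF left and bFGF right of the dotted line. Points are libraries with replicate numbers, and bars give the group mean and SD. In EGF + bFGF the first mean is 6.38 to 7.39 with Neurog2 + Hmgb2 and 5.00 to 5.30 with Hmgb2. The microglia mean there is highest in control library 2 (8.54) and Neurog2 + Hmgb2 library 2 (8.53). Neurog2 library 2 (7.34) and Neurog2 + Hmgb2 library 3 (7.08) come next.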

How the data were processed

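RNA-seq libraries of sorted, transduced mouse astrocytes were compared. The authors amplified cDNA by SMART-Seq v4 without keeping strand, aligned paired-end reads with STAR to mm10 (GRCm38.p6), counted them per GENCODE gene with HTSeq 0.9.1, and transformed the counts with DESeq2 (1.36.0 per the submitters' processing notes, another version in the methods). The deposited values are the authors' rlog values on a log2 scale, and no counts were used here. The methods give only an approximate number of reads per sample, so the depth of each library, and with it the counting precision, is unknown.

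Genes with a mean rlog of at least 1 were tested (15719, with 9520 left out) with limma 3.58.1 in R 4.3.3. A mean per group was fitted over all 29 libraries (21 residual degrees of freedom) with a variance trend, and p-values were adjusted by Benjamini-Hochberg over all tested genes. The comparisons were Neurog2 + Hmgb2 minus Hmgb2 in EGF + bFGF and in bFGF, Neurog2 and Hmgb2 minus control, and the differences of the Neurog2 responses as interaction terms. Genes were counted past a 2-fold change and an adjusted p of 0.05, while members of lists and single genes needed only the latter. Unless stated otherwise, values after ± are standard errors from this fit. The procedure was tested on simulated data. The members and the 35 gene lists were chosen with earlier results of these data known, and no list was tested as a set.

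The text names the 15 largest rises and falls past both thresholds without overlap (gene models left out), up to 5 called members per list, and genes the study follows, and other genes are said to be chosen after their values were seen or serve as cell type markers. A gene among these rises and another list member are not reported here. Libraries with the same number deviated together from their group means (correlations of 0.531, 0.780 and 0.216 over the tested genes for numbers 1, 2 and 3), which is the only sign of pairing, since the labels do not tie the numbers to animals or days. Some unlike numbers correlated too, at 0.446 for Neurog2 + Hmgb2 library 1 with Hmgb2 library 3 and 0.430 for library 3 with library 4. The main fit has no block, and an alternative blocks the number within each culture. The other alternatives were no filter, a mean of at least 4, median centring, quantile normalization, only the groups compared, only the EGF + bFGF libraries, array weights, no trend, a robust prior, other fold thresholds and leaving out each library. Gene positions are from GENCODE and promoters from RefSeq (GRCm38.p6), and figures were drawn with matplotlib 3.10.9 in Python 3.11.15.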

Additional observations from a re-analysis of the deposited data

Results flagged for a closer look

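In the group of 4 libraries labelled Hmgb2 in EGF + bFGF, 2 of the 68 named genes had 1 library set apart from the other 3 by Dixon's test. Mfng was at 4.04 in Hmgb2 library 4 and at 3.44 to 3.50 in the others, with a gap of 0.891 of the range. Neurod2 was at 2.86 in Hmgb2 library 1 and at 2.33 to 2.36 in the others, with a gap of 0.940 of the range. Both values lie below every Neurog2 + Hmgb2 library of the same gene. Such a test sets apart about 1 in 20 groups by chance, and 2 of 68 is no more than that. No named gene moved in opposite directions, without overlap, with and without the Hmgb2 virus.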

How the results depend on the processing

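All 99 counted genes kept their direction wherever they were tested under the alternatives run. The counts of 89 higher and 10 lower genes became 0 and 0 with only the 2 groups compared, and 249 and 79 with array weights, whose fit stopped before convergence. Leaving out 1 library at a time gave 19 to 129 higher and 0 to 21 lower genes. With both number-2 libraries left out 3 were lower, with Neurog2 + Hmgb2 libraries 2 and 3 left out (the remaining library is assumed to vary like the other groups) 19 were higher and 0 lower, and with the microglia mean as a covariate 57 and 4, all chosen after the data were seen. With no fold threshold 26 were lower, and at a 1.5-fold threshold 21. The replicate block gave 86 higher and 9 lower genes, of which 72 and 6 were among those counted without it, and the 16 named genes that lost their call are given with their blocked values, no other named call changing. Higher genes made up 89.9% of the calls, 75.9% with array weights and 77.7% without Neurog2 + Hmgb2 replicate 1. Centring and quantile normalization moved the median of all genes by less than 0.1. The difference tests gave 0 genes under every alternative run. Of the 68 named genes, only Hmgb2 changed direction, its difference running from -0.26 to 0.55 over the single omissions. The unknown depth of each library limits weakly expressed genes most.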
